A study of Mus musculus with 9 samples.

Results

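The Fc gamma receptors are the receptors through which macrophages bind the constant part of IgG antibodies. The 5 genes described here are the activating receptors Fcgr1, Fcgr3 and Fcgr4, the signalling gamma chain Fcer1g and the inhibitory receptor Fcgr2b. They were taken by symbol from a table of 14905 genes, in which all 5 were present. The table came from RNA sequencing of macrophages from mouse visceral fat, sorted as cells with both F4/80 and CD11b on their surface. Of its 9 libraries, 5 came from Nucb2-/- mice (KO) and 4 from wild-type animals (WT); the strain background of both is C57BL/6. The disrupted gene encodes nucleobindin-2, which binds calcium and is the precursor of nesfatin-1. The series title names obesity and insulin sensitivity. The name of the deposited table carries the letters HFD, the usual abbreviation of high-fat diet, for both groups, while the sample labels give neither diet nor age. Whether each numbered library is a separate mouse is not stated either, so that p-values speak only of the spread between libraries, part of which may be technical.

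Antibody bound to a particle or an immune complex gathers several Fc gamma receptors together. The activating receptors have no signalling motif of their own on the chain that binds IgG. They rely on the gamma chain, whose immunoreceptor tyrosine-based activation motif (ITAM) is phosphorylated by Src-family kinases and then docks the kinase Syk, which leads to phagocytosis and cytokine release. Fcgr2b carries an inhibitory motif that recruits the lipid phosphatase encoded by Inpp5d, and the balance of activating to inhibitory receptors is known to set how strongly a macrophage answers an immune complex. Interferon gamma is a textbook inducer of Fcgr1 and Fcgr4, and the transcription factor PU.1 acts at Fc receptor promoters in myeloid cells.

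The promoters of Fcgr1, Fcgr4 and Fcgr3 are shown because they hold matches to motifs tied to interferon signalling or to PU.1. The windows are the 250 bases before the annotated start, from RefSeq on GRCm38.p6, written 5′ to 3′ on the gene's own strand, with motif matches in capitals. The RefSeq start used for Fcgr3 lies inside the GENCODE gene span given further on, downstream of the GENCODE start, and the window before it holds no exon bases.
Fcgr1, chr3:96293970-96294219, minus strand: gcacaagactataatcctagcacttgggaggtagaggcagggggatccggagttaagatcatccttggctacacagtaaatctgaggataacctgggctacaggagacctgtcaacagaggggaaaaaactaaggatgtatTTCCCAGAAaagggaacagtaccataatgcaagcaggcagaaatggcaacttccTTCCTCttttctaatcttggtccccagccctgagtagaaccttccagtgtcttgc
Fcgr4, chr1:171018676-171018925, plus strand: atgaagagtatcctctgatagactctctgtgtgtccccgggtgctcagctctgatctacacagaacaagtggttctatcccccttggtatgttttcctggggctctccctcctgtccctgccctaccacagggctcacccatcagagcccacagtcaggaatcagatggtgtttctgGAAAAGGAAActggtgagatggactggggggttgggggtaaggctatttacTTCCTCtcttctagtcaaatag
Fcgr3, chr1:171059404-171059653, minus strand: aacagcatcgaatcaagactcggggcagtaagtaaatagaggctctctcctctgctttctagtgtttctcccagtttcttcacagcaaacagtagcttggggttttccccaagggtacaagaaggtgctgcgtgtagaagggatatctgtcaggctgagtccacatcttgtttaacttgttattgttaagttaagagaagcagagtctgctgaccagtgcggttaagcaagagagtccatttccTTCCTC
The motifs were searched on both strands in the same windows of 27025 genes. The gamma-activated site TTCNNNGAA, a site of interferon gamma responses, occurred in 1940 windows (7.18%). The Fcgr1 window held it as TTCCCAGAA, starting 109 bases before the annotated start. The core of the interferon-stimulated response element, taken as GAAA, any 2 bases and GAAA again, occurred in 821 windows (3.04%), and the Fcgr4 window held it as GAAAAGGAAA, starting 73 bases upstream. The PU.1 box GAGGAA occurred in 6252 windows (23.1%). It was present on the opposite strand, as TTCCTC, 55 bases upstream in Fcgr1, 22 in Fcgr4 and 6 in Fcgr3, or 15 from another RefSeq start of Fcgr3. The Fcgr2b and Fcer1g windows held none of these letters, and 187 of the 250 bases of the Fcgr2b window were themselves annotated as exon. The matches describe the sequence and do not show binding.

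Fcgr1 lies on chromosome 3 (96282909 to 96293969, minus strand, GENCODE M21 on GRCm38). The other 4 genes lie within 275.7 kb of chromosome 1, from Fcgr2b (170958617 to 170976547, minus strand) through Fcgr4 (171018920 to 171029761, plus strand) and Fcgr3 (171051174 to 171064935, minus strand) to Fcer1g (171229572 to 171234365, minus strand). Fcgr2b and Fcgr3 share sequence: 166 of the 1345 stretches of 50 bases in the Fcgr3 exons (12.3%) were also in those of Fcgr2b. Fcgr1, Fcgr4 and Fcer1g shared none with any other gene. How reads common to both genes were counted is not given in the sources used here, so the split between Fcgr2b and Fcgr3 is uncertain to that extent. The antisense gene Gm38204 overlaps Fcgr2b, and whether strand was used in counting is likewise not given.

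The values are normalized read counts, with a floor of 1. The size of 1 read in each library, visible as the step between low values, gave 74937721 to 85200101 reads for 6 deeper libraries and 51148956 to 55004978 for 3 shallower ones. The shallower libraries were KO replicate 5 and WT replicates 3 and 4. The groups were compared with limma on log2 of the normalized count plus 1 over all genes, with Benjamini-Hochberg adjusted p-values, and a gene was called at an adjusted p under 0.05. Of the 14905 genes, 46 were called (0.309%), 19 of them lower in KO (0.127%) and 27 higher (0.181%). The split was 35 higher and 15 lower with total-count scaling, and 12 higher and 20 lower with limma-voom. An unadjusted p under 0.05 in limma, in either direction, was found for 1363 of the 14905 genes. Leaving out 1 library at a time left 38 calls without WT replicate 1 and 5 to 19 without any other, the fewest without KO replicate 3. Nucb2 itself was lower in each KO library (1165 to 1752) than in any WT library (3311 to 5233), with a log2 difference of -1.52 (limma adjusted p = 0.000539). All 10 macrophage markers were measured and limma called none (3 at an unadjusted p under 0.05). Their summed count was 1318530 to 1522823 in KO and 1312141 to 1483074 in WT.

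All 5 genes were abundant in these macrophages, and limma and limma-voom each called none of them. At an unadjusted p under 0.05 in limma, 3 were lower in KO (Fcgr1, Fcgr4 and Fcer1g), as were 3.78% of all genes. Compared per kilobase of exon, Fcer1g had the highest level, with a mean of 129131 in KO and 146070 in WT, and 26 of the 14369 genes with a length were higher. Fcgr3 followed at 42179 in KO and 45812 in WT. The other 3 receptors lay well below it: Fcgr2b at 5278 and 5689, Fcgr4 at 4252 and 9380, and Fcgr1 at 3868 and 5505 in KO and WT. In KO, the order below Fcgr3 was therefore Fcgr2b, Fcgr4, Fcgr1, while in WT Fcgr4 came first. Within libraries, Fcgr4 was above Fcgr1 in all 5 KO and all 4 WT libraries, although their ranges overlapped in both groups and the nearest pair, KO replicate 1, was at 4064 and 4004. Fcgr4 was also above Fcgr2b in all 4 WT libraries and below it in all 5 KO libraries. Fcgr1 was above Fcgr2b in 2 of the 4 WT libraries and below it in the others. The Fcgr2b level depends on the length used, because its exons add up to 3810 bases and its median transcript has 1520. With the median transcript its level was 13230 in KO and 14260 in WT, and its mean was then above those of Fcgr4 and Fcgr1 in both groups. In bulk libraries, fewer cells that express a gene and less RNA per cell cannot be told apart.

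Fcgr4, the receptor of intermediate affinity for IgG2a and IgG2b, showed the largest difference of the 5. Its normalized count was 5103.93, 5904.55, 5946.75, 5393.67 and 4354.63 in KO replicates 1 to 5. In WT replicates 1 to 4 it was 7082.26, 7938.64, 19937.2 and 12167.4. Every KO library was below every WT library, and WT replicates 3 and 4 stood above all others. The mean was 5341 ± 655 (SD, n = 5) in KO and 11781 ± 5874 (SD, n = 4) in WT, so that KO had 45.3% of the WT level. The log2 difference was -1.03 (SE 0.23, 95% interval -1.51 to -0.54), which did not pass the threshold (limma adjusted p = 0.0825). The exact two-sided permutation test on this gene alone gave p = 0.0159, the smallest that 5 against 4 libraries allow.

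The size of the Fcgr4 difference varied with the libraries compared. Among the 6 deeper libraries the log2 difference was -0.43 (limma adjusted p = 0.424), with 5103.93 to 5946.75 in KO and 7082.26 to 7938.64 in WT. Between KO replicate 5 and WT replicates 3 and 4, the shallower libraries, it was -1.84. Without WT replicates 3 and 4 it was -0.50 (limma adjusted p = 0.417). The coefficient of variation of Fcgr4 was 49.9% in WT, higher than for 98.8% of the 1794 genes of similar level, whose median was 11.0%. In KO it was 12.3%.

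Fcgr1, the high-affinity receptor for monomeric IgG, also separated the groups. Its normalized count was 10365.5, 11268.1, 10958.6, 8684.77 and 8798.36 in KO replicates 1 to 5 and 12823.6, 11917.2, 18178.7 and 14093.5 in WT replicates 1 to 4. No KO library reached the lowest WT library, and the gap between the nearest 2, KO replicate 2 and WT replicate 2, was small beside the range within either group. The mean was 10015 ± 1208 (SD, n = 5) in KO, 70.3% of the 14253 ± 2765 (SD, n = 4) in WT. The log2 difference of -0.50 (SE 0.12, 95% interval -0.76 to -0.23) did not pass the threshold (limma adjusted p = 0.123), and the exact permutation test gave p = 0.0159. Among the deeper libraries it was -0.27 (limma adjusted p = 0.728), and WT replicate 3 was again the highest library.

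Groups that did not overlap with KO lower were seen for 238 of all 14905 genes (1.60%; KO higher in 1.55%), and for 85 of the 1282 genes (6.63%) whose mean was at or above that of Fcgr4, the lowest of the 5. Fcgr1 and Fcgr4 were 2 such genes among 5. Ordered by unadjusted p over the whole table, Fcgr4 was gene 73 and Fcgr1 gene 131.

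**Figure D1:**
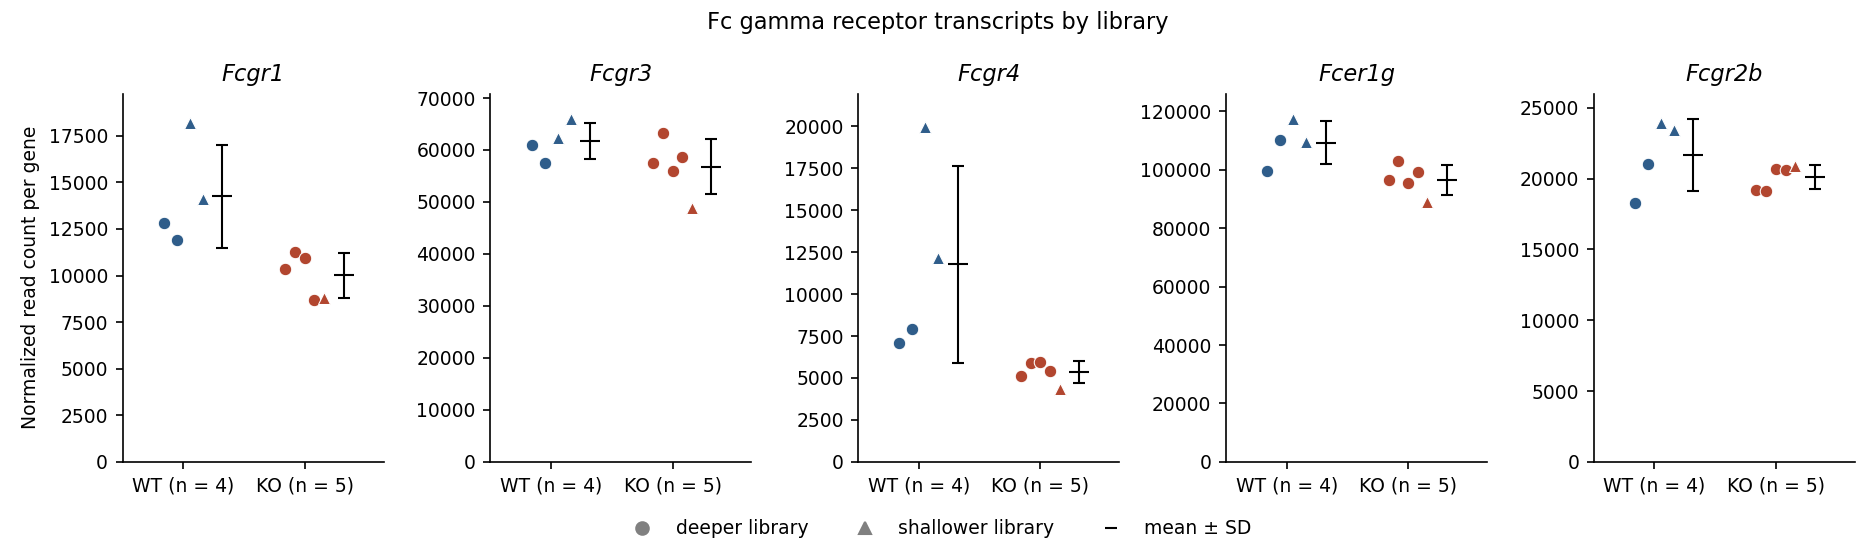
Normalized read count (y axis, from 0, its own scale in each panel) of the 5 genes in the 4 WT and 5 KO libraries. Each point is a library, triangles are the 3 shallower libraries, and bars give the mean and SD of each group. Fcgr1 and Fcgr4 have all KO points below all WT points, with WT replicate 3 the highest in both, while Fcgr3, Fcer1g and Fcgr2b overlap.

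Fcgr3, the low-affinity receptor for immune complexes and by far the most abundant of the activating receptors, overlapped between the groups. Its count was 57494.8, 63233.9, 55988.5, 58583.8 and 48774.2 in KO replicates 1 to 5 and 60948.8, 57572.2, 62316.7 and 65994.7 in WT replicates 1 to 4. KO replicate 5 was the lowest library, and KO replicate 2 was exceeded by WT replicate 4 only. The mean was 56815 ± 5247 (SD, n = 5) in KO and 61708 ± 3485 (SD, n = 4) in WT. The log2 difference was -0.12 (SE 0.08, 95% interval -0.29 to 0.04; limma adjusted p = 0.675; exact permutation p = 0.159), and -0.01 among the deeper libraries.

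Fcer1g, the gamma chain that Fcgr1, Fcgr3 and Fcgr4 all need for signalling, had counts of 96593, 102918, 95370.6, 99124.3 and 88943.4 in KO replicates 1 to 5. In WT replicates 1 to 4 the counts were 99712.9, 110196, 117584 and 109547. KO replicate 2 was above WT replicate 1, and the other KO libraries were below all WT libraries. The mean was 96590 ± 5158 (SD, n = 5) in KO, 88.4% of the 109260 ± 7335 (SD, n = 4) in WT. The log2 difference was -0.18 (SE 0.07, 95% interval -0.32 to -0.03; limma adjusted p = 0.391; exact permutation p = 0.0317), and -0.09 among the deeper libraries.

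Fcgr2b, the inhibitory receptor, had counts of 19175.3, 19154.7, 20706.4, 20618 and 20891 in KO replicates 1 to 5 and 18308, 21054.1, 23893.3 and 23445.5 in WT replicates 1 to 4. WT replicate 1 was the lowest of the 9 libraries and the other WT libraries were the 3 highest, so the groups overlapped. The mean was 20109 ± 867 (SD, n = 5) in KO and 21675 ± 2568 (SD, n = 4) in WT. The log2 difference was -0.10 (SE 0.09, 95% interval -0.29 to 0.08; limma adjusted p = 0.770; exact permutation p = 0.270). Its direction turned among the deeper libraries, where it was 0.02. A difference below 0, which all 5 genes had in the 9 libraries, was found for 7096 of all genes (47.6%). Abundant genes tended somewhat lower in KO: the median log2 difference was -0.05 over the 1282 genes whose mean was at or above that of Fcgr4, and 0.02 over all genes.

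The ratio of activating to inhibitory receptor transcripts was described without a test, since it is a score over the same genes. The sum of the Fcgr1, Fcgr3 and Fcgr4 counts over the Fcgr2b count was 3.81, 4.20, 3.52, 3.52 and 2.96 in KO replicates 1 to 5. It was 4.42, 3.68, 4.20 and 3.93 in WT replicates 1 to 4. The groups overlapped, KO replicate 5 was the lowest library and WT replicate 1 the highest. The mean was 3.60 ± 0.45 (SD, n = 5) in KO and 4.06 ± 0.32 (SD, n = 4) in WT. The log2 difference of -0.18 compared with a standard deviation among libraries of 0.16, pooled over the groups. Per kilobase of exon the ratio was 9.57 ± 1.20 (SD, n = 5) in KO and 10.7 ± 0.82 (SD, n = 4) in WT, with a log2 difference of -0.17. With the median transcript length it was 3.84 ± 0.48 (SD, n = 5) and 4.29 ± 0.33 (SD, n = 4), so the size of the per-kilobase ratio depends on the Fcgr2b length used, while the log2 difference was again -0.17. Among the deeper libraries the log2 difference of the ratio of counts was -0.10.

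Taken receptor by receptor, the ratios to Fcgr2b differed. Fcgr4 over Fcgr2b, as a ratio of counts, was 0.208 to 0.308 in KO and 0.377 to 0.834 in WT, with no overlap and a log2 difference of -0.92, or -0.45 among the deeper libraries. Fcgr1 over Fcgr2b was 0.500 ± 0.075 (SD, n = 5) in KO and 0.657 ± 0.090 (SD, n = 4) in WT, where the groups overlapped. Fcgr3 over Fcgr2b was 2.84 ± 0.36 (SD, n = 5) and 2.87 ± 0.32 (SD, n = 4), a log2 difference of -0.02. Fcgr3 gave 76.8% to 80.6% of the counts in the summed numerator in KO and 62.0% to 75.4% in WT.

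The make-up of the activating receptor transcripts separated the groups. Per kilobase of exon, Fcgr3 gave 82.3% to 85.0% of the activating sum in KO and 66.9% to 81.0% in WT. Fcgr4 gave 8.01% to 9.37% in KO and 10.1% to 23.0% in WT, and Fcgr1 gave 6.56% to 8.38% in KO and 8.49% to 10.2% in WT. None of these shares overlapped, though the nearest KO and WT libraries lay close in each, and the 3 shares are not independent because they add up to the whole. Among the deeper libraries the WT shares were 79.6% to 81.0% for Fcgr3, 10.1% to 11.8% for Fcgr4 and 8.58% to 8.87% for Fcgr1. The log2 difference of the Fcgr4 share was -0.35 there, against -0.76 over all 9 libraries, and that of the Fcgr3 share 0.06 against 0.15. Fcer1g over the activating sum, per kilobase, was 2.58 ± 0.11 (SD, n = 5) in KO and 2.42 ± 0.22 (SD, n = 4) in WT, with overlap.

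**Figure D2:**
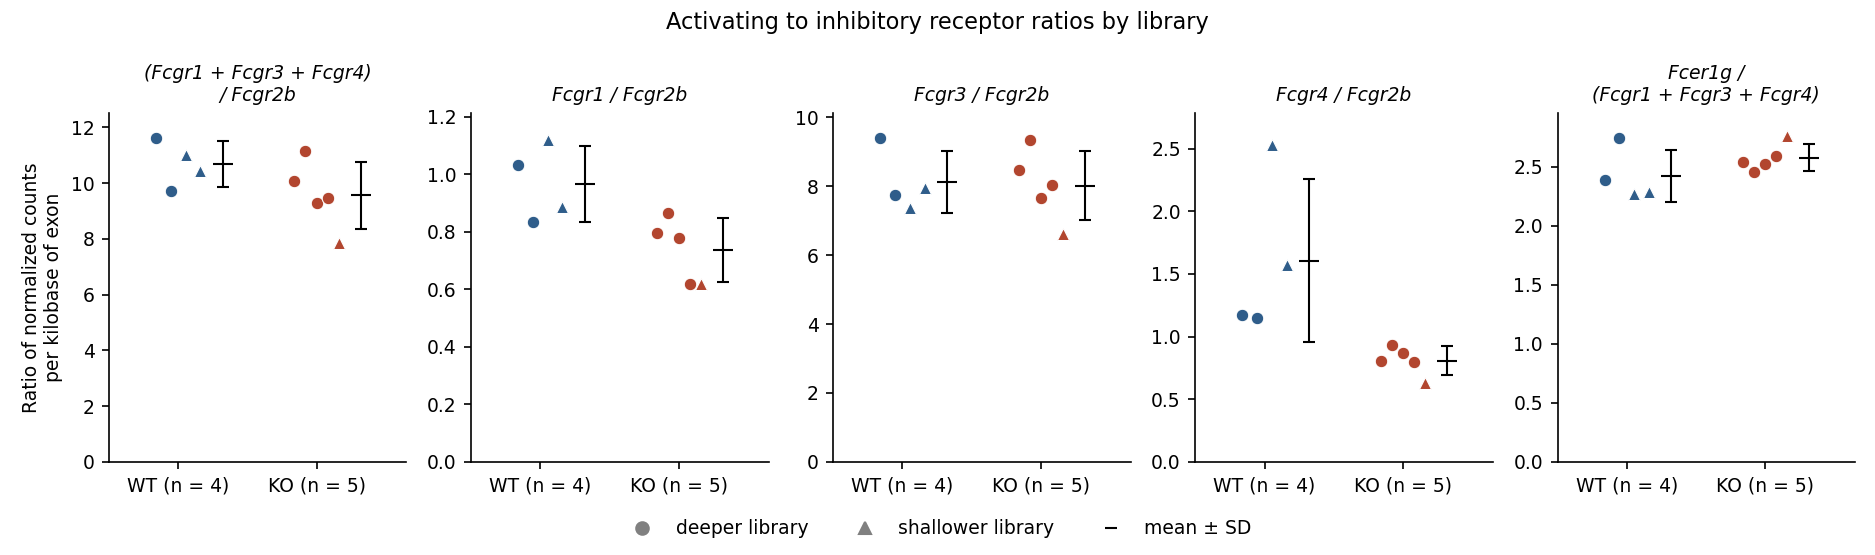
Ratios of normalized counts per kilobase of exon (y axis, from 0, its own scale in each panel) in the 4 WT and 5 KO libraries, with the mean and SD of each group as bars and triangles for the 3 shallower libraries. The groups overlap in each panel except Fcgr4 over Fcgr2b, where the KO libraries lie between 0.632 and 0.935 and the WT libraries between 1.14 and 2.53.

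The other Fc receptors formed a list of 13, of which 10 were measured. Of these 10, 1 fell and none rose, against 0.127% and 0.181% of all genes. The median log2 difference of the 10 was 0.04, against 0.02 over all genes. Fcer1a, the IgE-binding chain of the high-affinity IgE receptor, which also pairs with the gamma chain, was at the floor of 1 in all 5 KO libraries. It was at 35.4 to 224 in WT (limma adjusted p = 0.0223). Against a floor of 3 reads per KO library this was at least 41.8-fold lower, a bound that covers counting error only. The call was lost without any 1 of the KO libraries, without WT replicate 2 and without WT replicate 4 (limma adjusted p = 0.0534 to 0.0857). Fcer1a is a gene of mast cells and basophils. Of the 8 markers of those cells, 4 fell (Cpa3, Tpsb2, Cma1 and Fcer1a), against 0.127% of all genes. Each of the 4 lost its call when some single libraries, among them KO replicate 1 and WT replicate 2, were left out. Of the 8, 7 had a difference below 0 and 1 above. For 6 the groups did not overlap, with KO lower (1.60% of all genes). The summed count of the 8 was 1849.51 to 3491.75 in KO and 6080.63 to 10799.2 in WT. The part of such cells in the Fcer1a result was not tested. Fcgrt, the neonatal Fc receptor that recycles IgG inside cells, was at 39868 ± 8342 (SD, n = 5) in KO and 39013 ± 2796 (SD, n = 4) in WT (log2 difference 0.01, limma adjusted p = 0.987). Trim21, the cytosolic IgG receptor, was low, at 79.2 ± 34.0 (SD, n = 5) and 113 ± 30.2 (SD, n = 4).

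Of the ITAM adaptors and other partners of the gamma chain, 9 of 11 were measured and neither limma nor limma-voom called any. In limma 2 had an unadjusted p under 0.05, against 1363 of all 14905 genes. The median log2 difference of the 9 was -0.18, with 6 below 0, as were 47.6% of all genes. Tyrobp, the ITAM adaptor DAP12, resembled Fcer1g in level and in size of difference: it was at 92678.1 to 108661 in KO and 110006 to 119596 in WT, without overlap, with a log2 difference of -0.19 (SE 0.06; limma adjusted p = 0.302). Groups that did not overlap with KO lower were seen for 238 genes of the table (1.60%), and in either direction for 469 (3.15%). The share with KO lower was 6.63% among genes with a mean at or above that of Fcgr4. Of these 9 genes 2 did not overlap, both with KO lower: Tyrobp and the lectin gene Clec4b1, which was named after its value was seen. The lectin receptors Clec4e (Mincle) and Clec4n (Dectin-2), which signal through the gamma chain, had log2 differences of 0.10 and -0.23 (limma adjusted p = 0.852 and 0.805), and of 0.16 and 0.17 among the deeper libraries.

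Of the 29 genes of activating signalling, all were measured and neither limma nor limma-voom called any. In limma 4 had an unadjusted p under 0.05, against 1363 of all 14905 genes. The median log2 difference of the 29 was -0.10, with 23 below 0, as were 47.6% of all genes. Among the Src-family kinases that phosphorylate the ITAM, Lyn was at 20232 ± 1937 (SD, n = 5) in KO and 23955 ± 2275 (SD, n = 4) in WT (log2 difference -0.24, limma adjusted p = 0.374). Fgr was at 7013 ± 2206 (SD, n = 5) in KO and 5147 ± 641 (SD, n = 4) in WT (0.40, limma adjusted p = 0.504), with KO replicate 1 the highest at 10662.7. Syk, the kinase docked by the phosphorylated motif, was at 9967 ± 826 (SD, n = 5) in KO and 11775 ± 680 (SD, n = 4) in WT (-0.24, limma adjusted p = 0.364), and the groups overlapped by the nearest pair of libraries only. The effectors below Syk had log2 differences of -0.10 for Plcg2, -0.21 for Btk and -0.10 for Vav1. Among the deeper libraries these were -0.18, -0.088 and 0.15, and that of Lyn was -0.15.

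Of the 19 genes of inhibitory signalling, all measured, 1 rose and none fell, against 0.181% and 0.127% of all genes. Their median log2 difference was -0.10, against 0.02 over all genes. That 1 call was lost in the deeper libraries, without any 1 of the KO libraries and without WT replicate 2. Inpp5d, the phosphatase that Fcgr2b recruits, was at 8573 ± 892 (SD, n = 5) in KO and 9750 ± 1095 (SD, n = 4) in WT (-0.19, limma adjusted p = 0.634). Ptpn6, the tyrosine phosphatase SHP-1, was at 9224.48 to 10712.9 in KO and 11128.9 to 15424.8 in WT, without overlap (-0.35, limma adjusted p = 0.193). The inhibitory receptor gene Lair1 had a log2 difference of -0.35 (limma adjusted p = 0.436). Among the deeper libraries the log2 differences were smaller, at -0.064 for Inpp5d, -0.20 for Ptpn6 and -0.028 for Lair1.

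The machinery of the phagocytic cup was represented by 38 genes of actin remodelling, all measured, of which neither limma nor limma-voom called any. In limma 5 had an unadjusted p under 0.05, against 1363 of all 14905 genes. The median log2 difference of the 38 was -0.06, and 27 were below 0, as were 47.6% of all genes. Rac2, the GTPase of haematopoietic cells that drives actin assembly, was at 28571 ± 3221 (SD, n = 5) in KO and 28940 ± 1975 (SD, n = 4) in WT (-0.02, limma adjusted p = 0.951). Was, which activates the actin-nucleating Arp2/3 complex, was at 838 ± 228 (SD, n = 5) and 1000 ± 241 (SD, n = 4) (-0.27, limma adjusted p = 0.812; -0.085 among the deeper libraries).

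**Figure D3:**
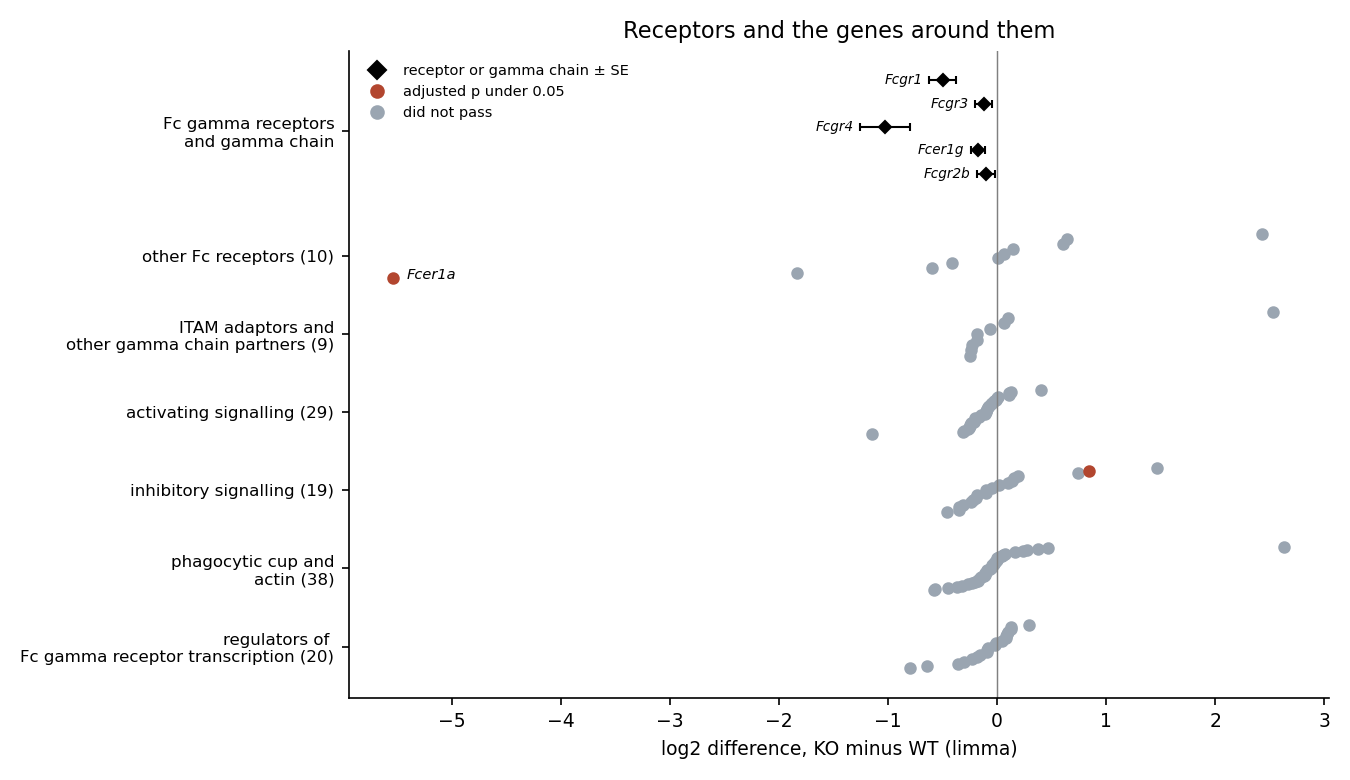
Log2 difference, KO minus WT, from limma (x axis) for the 5 genes, with bars of 1 SE, and for the measured members of 6 gene lists, 1 point each, spread vertically within a list for visibility. Red points passed an adjusted p under 0.05: Fcer1a, whose plotted value is a fitted one against libraries at the floor, and 1 gene of inhibitory signalling. The other list members and all 5 receptor genes did not pass.

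None of the 20 regulators of Fc gamma receptor transcription was called by limma or limma-voom. In limma 2 had an unadjusted p under 0.05, against 1363 of all 14905 genes. The median log2 difference of the 20 was -0.05. Irf8, an interferon regulatory factor of myeloid cells, was at 2834.08 to 4274.93 in KO and 3638.94 to 8076.61 in WT (-0.64, limma adjusted p = 0.228; -0.25 among the deeper libraries). Its 2 highest libraries were WT replicates 3 and 4, as they were for Fcgr4. Spi1, which encodes PU.1, had a log2 difference of 0.04 (limma adjusted p = 0.974). C5ar1, the receptor for the complement fragment C5a, was at 99098 ± 7849 (SD, n = 5) in KO and 90662 ± 8176 (SD, n = 4) in WT (0.13, limma adjusted p = 0.650).

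The genes nearest to each receptor in profile were found among 7291 genes, by the root mean square distance between log2 values centred on their mean over the 9 libraries. For Fcgr4, whose own values spread by 0.65 on that measure, 2 of the nearest 3 were Gbp7 at 0.25 and Nampt at 0.26. Gbp7 is a guanylate-binding protein gene and Nampt encodes an enzyme of NAD synthesis. Both were highest in WT replicate 3 and next in WT replicate 4. For Fcgr1, with a spread of 0.31, they were Slamf7 at 0.087, Psme1 at 0.12 and Uchl5 at 0.12. Slamf7, a surface receptor of the SLAM family, was at 9528.28 to 13001.2 in KO and 14077.7 to 21392.1 in WT, and its log2 difference of -0.60 did not pass (limma adjusted p = 0.0541; -0.37 among the deeper libraries). Because Slamf7 was picked for its closeness to the profile of Fcgr1, its own difference follows in part from that choice. Psme1 encodes a subunit of the proteasome activator PA28.

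For Fcer1g, with a spread of 0.12, they were Uqcrb, a subunit of respiratory complex III, at 0.040, Tmem14c at 0.041 and Atp5j2, a subunit of ATP synthase, at 0.046. For Fcgr3, also at 0.12, they were Tlr2, a receptor for bacterial lipoproteins, at 0.045, Cmtm3 at 0.054 and Atp5c1 at 0.056. For Fcgr2b, at 0.12, they were Hdac1, Slmo2 and Ndufab1, at 0.049 to 0.050. The distances share the same 9 libraries and are a description of them.

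**Figure D4:**
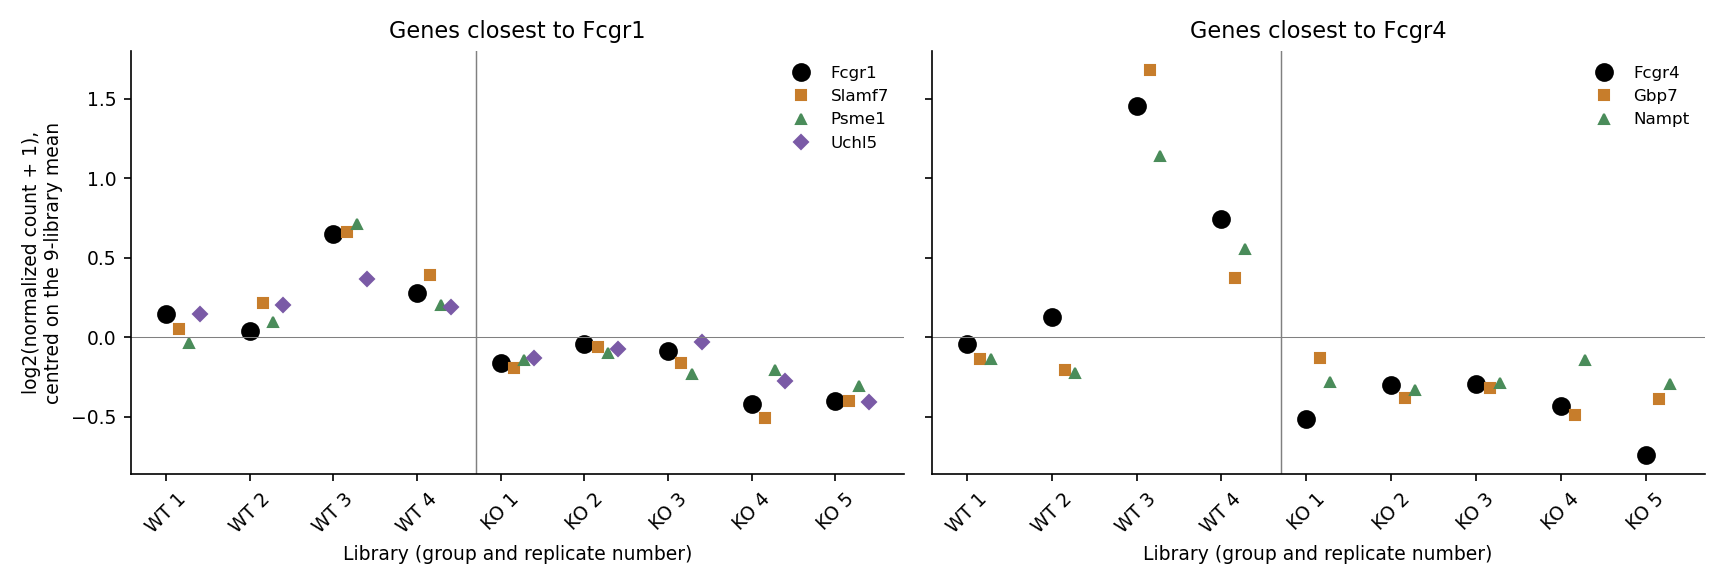
Log2 of the normalized count plus 1, centred on the mean over the 9 libraries (y axis), for Fcgr1 and Fcgr4 (black) and their nearest genes, 3 for Fcgr1 and 2 for Fcgr4, by library (x axis); points of a library are set side by side. In the right panel Fcgr4, Gbp7 and Nampt have their highest value in WT replicate 3 and the next in WT replicate 4, and in the left panel Fcgr1 and its 3 nearest genes lie below the mean in all KO libraries.

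On the chromosomes, 34 other measured genes lay within 250000 bases of one of the 5. Neither limma nor limma-voom called any. In limma 2 had an unadjusted p under 0.05, against 1363 of all 14905 genes. Of the 34, 16 had a difference below 0 and 18 above, with a median log2 difference of 0.03. Fcrla, 31034 bases from Fcgr2b, was low and scattered, at 1 to 278 in KO and 1 to 105 in WT.

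Markers of other cells that carry Fc gamma receptors were examined in the same libraries. The 9 B cell markers, of cells in which Fcgr2b is the only Fc gamma receptor, summed to 4072 to 4837 in KO and 3817 to 6612 in WT. Limma called none, and none had an unadjusted p under 0.05. The 8 natural killer cell markers, of cells that carry Fcgr3, summed to 577 to 1123 and 305 to 1034, with 0 at either threshold. The 8 monocyte markers summed to 108757 to 139550 in KO and 96933 to 110942 in WT, and the 6 measured neutrophil markers to 2546 to 4336 and 1990 to 2983. Limma called none of either (2 and 1 at an unadjusted p under 0.05). Of the monocyte markers 7 had a difference above 0 and 1 below, with a median log2 difference of 0.20. Of the neutrophil markers 5 were above 0 and 1 below, with a median of 0.53, and 1 did not overlap, with KO higher. Of the 7 dendritic cell markers 1 rose, Cd209a, against 0.181% of all genes. Its call was lost without any 1 library except WT replicate 1 (limma adjusted p = 0.0856 to 0.225). The sum of the 7 was 8431 to 12546 in KO and 5421 to 7810 in WT, without overlap. The 7 did not all go the same way: 5 had a difference above 0 and 2 below, the lowest at -3.49. In limma, 4 of them had an unadjusted p under 0.05, against 1363 of all 14905 genes. The groups did not overlap for 1 marker with KO lower and for 1 with KO higher (1.60% and 1.55% of all genes). The 8 endothelial markers summed to 4466 to 7140 in KO and 2567 to 4928 in WT, with none called by limma and 5 at an unadjusted p under 0.05. Of the 8, 7 had a difference above 0 and 1 below, with a median log2 difference of 1.29. For 3 of them the groups did not overlap, with KO higher (1.55% of all genes). Only the dendritic sum was thus higher in every KO library than in any WT library. Only the sum of mast cell and basophil markers was lower in every KO library. The macrophage, natural killer, monocyte, neutrophil and endothelial sums reached higher in KO, and the B cell sum in WT, but the groups overlapped in each. The part of any of these cells in the receptor values was not tested.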

How the data were processed

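RNA from sorted macrophages was sequenced in 5 KO and 4 WT libraries, from oligo-dT selected messenger RNA made strand-specific with dUTP, per the labels' protocols. Per the submitters' processing notes, the tools were CASAVA 1.8.2, HISAT, Partek and DESeq2 and the build mm10, with no role stated for any. Annotation, handling of shared reads and strand setting: not given in the sources used here. All deposited values are a signal: read counts divided by 1 factor per library, with values under 1 set to 1, as read from the values themselves. In every library 100% of the values above 1 and under 1000 were whole multiples of 1 step, within 0.1 of a step. Because of the floor no count-model test was used. The lowest gene mean in the table was 5.09.

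The test was limma 3.58.1 in R 4.3.3 with a mean-variance trend, on log2 of the value plus a pseudocount of 1, fitted to genotype alone and adjusted by Benjamini-Hochberg over all 14905 genes, threshold 0.05, after the code was tested on simulated data. Differences are on that scale. Exact permutation tests used the log2 values and SciPy 1.17.1. Per-kilobase levels divide by the summed exon bases of GENCODE M21 basic transcripts, matched by symbol for 14369 genes (96.4%). Promoter windows were matched by symbol for all 5 genes. Figures were drawn with matplotlib 3.10.9.

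The 5 genes, the 7 gene lists and the 8 marker lists were chosen with earlier results of these data known. Named list genes were picked for their role, together with every list gene that passed the test, and the 3 nearest profiles per gene came from genes with a mean of at least the median over genes (648.6), leaving out predicted gene symbols. Fcrla and Clec4b1 were picked after their values were seen. Some genes named by this rule are left unreported. Alternatives were pseudocounts of 0.1 and 10, low-value filters, quantile and median-ratio scaling, robust moderation, array weights, a replicate block, limma-voom, each library left out, a term for depth class, and the deeper libraries on their own. Total-count scaling, median transcript lengths and leaving out WT replicates 3 and 4 together were added after seeing the data.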

Additional observations from a re-analysis of the deposited data

How the results depend on the processing

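None of the 5 genes passed the threshold in any of its 23 alternative fits, with adjusted p-values (limma) of 0.0635 to 0.503 for Fcgr4 and 0.103 to 0.728 for Fcgr1. Their log2 differences ran from -1.23 to -0.43 and from -0.58 to -0.27, those of Fcer1g from -0.22 to -0.09 and those of Fcgr3 from -0.16 to -0.01. Fcgr2b ran from -0.18 to 0.03, turning to 0.019 in the deeper libraries and to 0.033 without WT replicates 3 and 4. The log2 difference of the activating to inhibitory ratio ran from -0.24 to -0.11 with 1 library left out. No scaling moved the median of all genes by over 0.1.

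Called genes (limma) numbered 0 in the deeper libraries (1039 at an unadjusted p under 0.05), 2 without WT replicates 3 and 4, and 5 to 38 with 1 library left out. Calls among the other Fc receptors were 0 with depth class as a term, in the deeper libraries and without both WT libraries, and 0 to 1 with 1 left out. Calls in inhibitory signalling were 0 in the deeper libraries and without both, and 0 to 1 with 1 left out. Phagocytic cup genes had 1 call under total-count scaling. The cause of these changes was not tested, beyond the smaller number of libraries where some were left out.

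Small differences turned in sign. With 1 library left out Clec4e ran from -0.026 to 0.19, Clec4n from -0.39 to 0.0033, Fcgrt from -0.097 to 0.097, Rac2 from -0.060 to 0.044, Spi1 from -0.22 to 0.14 and Vav1 from -0.19 to 0.058. In the deeper libraries Fcgrt was -0.050, Clec4n 0.17, Vav1 0.15 and Rac2 0.019. Without WT replicates 3 and 4 Fcgrt was -0.025 and Clec4n 0.23. Rac2 was 0.0021 under quantile normalization and 0.052 under total-count scaling.

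Deviations from the group means correlated at -0.0531, 0.0898, 0.0036 and 0.0625 between same-numbered KO and WT libraries. Between differently numbered ones the correlations ran from -0.1138 to 0.0827. Such small values cannot decide whether the numbers pair the libraries. With the replicate block 0 genes were called by limma (1104 at an unadjusted p under 0.05), 0 among the other Fc receptors and 0 in inhibitory signalling, while Fcgrt was -0.015, Vav1 0.058 and Rac2 0.044. The planned edgeR fit was not run, because the floor of 1 hides low counts; limma-voom on reads worked out from the steps, with the deposited factors as library sizes, called 32 genes and none of the 5.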
